A study of Homo sapiens with 11 samples.

Results

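The 9 genes described here encode the enzymes that make serine and pass its carbon to folate: PHGDH, PSAT1 and PSPH of serine synthesis, SHMT1 and MTHFD1 of the cytosolic folate arm, and SHMT2, MTHFD2, MTHFD1L and ALDH1L2 of the mitochondrial folate arm. They were chosen by name, as a known pathway, with earlier results of these data known. They are 9 of the 23609 gene symbols in the data, and all 9 passed the filter on low values. Expression was measured by RNA-seq in A549, a long-established cell line from a human lung adenocarcinoma that was used for every library. Cells were given CSC (cigarette smoke condensate), which is tar collected from smoke and dissolved, or only the vehicle, DMSO. The 4 groups were DMSO for 48 hours (2 libraries, replicates 2 and 3), CSC for 48 hours (3 libraries), DMSO for 2 weeks (3 libraries) and CSC for 2 weeks (3 libraries). The sample titles give the CSC dose as 20 µM, which is quoted as written, since a condensate is a mixture. A cancer cell line in culture stands in here for lung epithelium. Whether replicates came from separate cultures is not labelled; the p-values therefore reflect only the spread between these libraries, which may be technical.

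Serine is made from the glycolytic intermediate 3-phosphoglycerate by PHGDH, PSAT1 and PSPH in turn. Serine hydroxymethyltransferase then moves a carbon from serine to tetrahydrofolate, leaving glycine, in the cytosol (SHMT1) or in the mitochondrion (SHMT2). The mitochondrial enzymes oxidise that carbon to formate, which leaves for the cytosol, where MTHFD1 uses it for purine and thymidylate synthesis. Proliferating tumour cells are known for high serine synthesis, and transcription of several of these genes is known to be driven by ATF4, the transcription factor of amino acid shortage and the integrated stress response.

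After 2 weeks, CSC was accompanied by higher expression of 4 of the 9 genes: PHGDH 2.67-fold, MTHFD2 2.23-fold, PSAT1 2.13-fold and SHMT2 1.43-fold (limma, adjusted p under 0.05). No member was called lower. The cytosolic pair, SHMT1 and MTHFD1, did not pass the test at 2 weeks, with changes of 0.17 and 0.04 on the log2 scale. At 48 hours no member passed, and for 6 of the 9 genes 1 of the 3 CSC libraries, replicate 3, was the highest of that time. How often it was the highest over all tested genes was not counted.

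**Figure D1:**
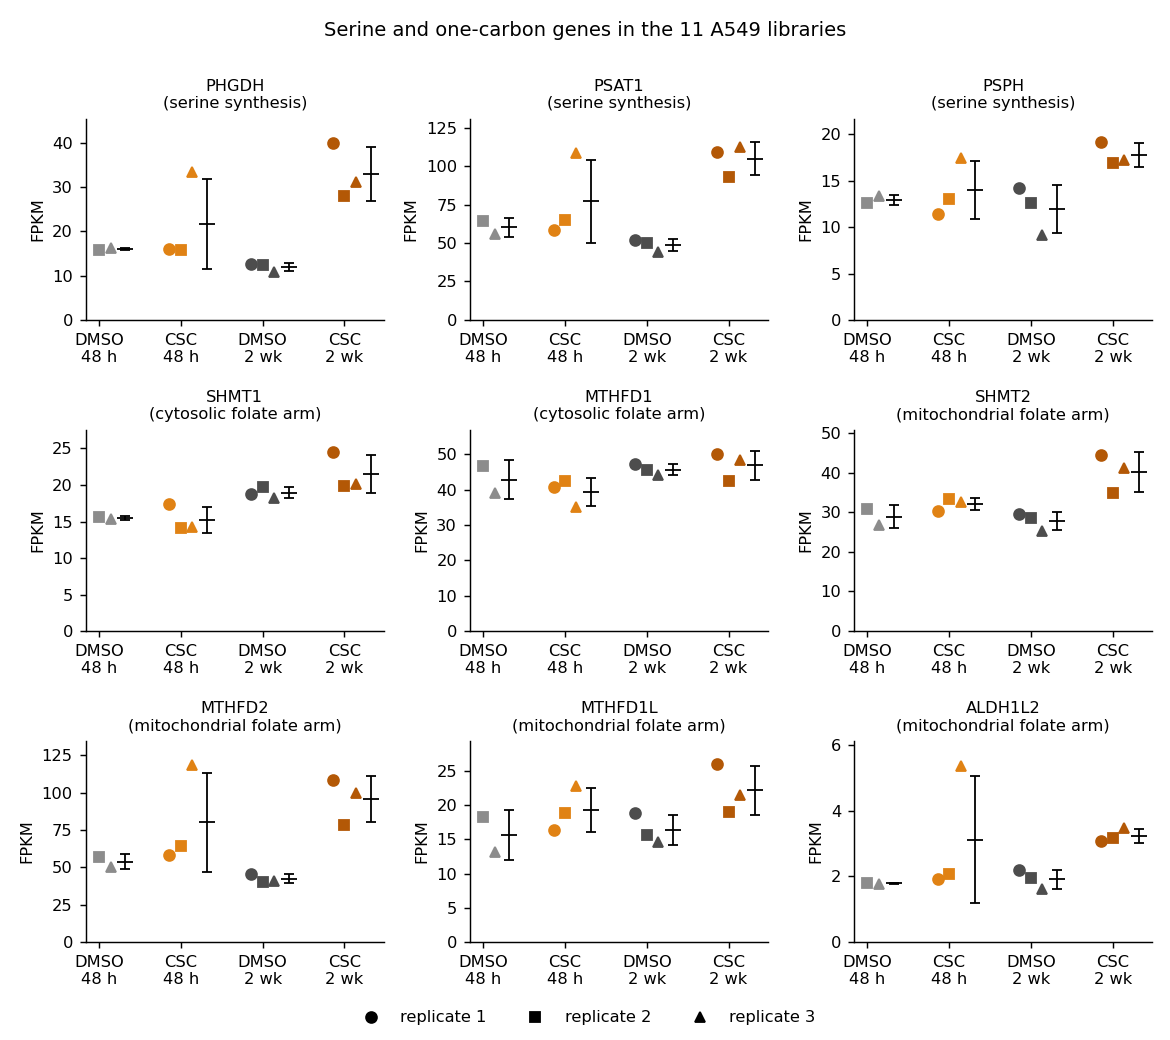
FPKM of the 9 genes in each of the 11 libraries, with the mean and SD of each group beside the points (n = 2 for DMSO at 48 hours, n = 3 otherwise). At 2 weeks the CSC libraries lie above the DMSO libraries for every gene except MTHFD1, and at 48 hours CSC replicate 3 stands apart from replicates 1 and 2 for PHGDH, PSAT1, MTHFD2 and ALDH1L2.

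FPKM counts fragments relative to transcript length and to the mapped fragments of the library, so levels can be compared between genes. Fold changes are on the log2(FPKM + 0.5) scale, which understates changes of low genes. FPKM summed to 338507 to 484053 per library, and 11742 to 12051 genes reached an FPKM of 1. Relative depth was read from the width of the deposited FPKM bounds over 4250 of the 25275 lines per library. It was 1 to 1.37 in 10 libraries and 2.65 in CSC at 2 weeks replicate 2. CYP1B1 and TIPARP, known targets of the aryl hydrocarbon receptor that smoke compounds activate, were higher with CSC at both times, by 2.71 and 2.23 (log2) at 48 hours and by 2.38 and 1.93 at 2 weeks. The epithelial keratins KRT8 and KRT18 lay at 574 to 1765 FPKM in all 11 libraries and EPCAM at 2.59 to 8.15. Both keratins were lower in every CSC library than in every DMSO library of the same time, by 0.58 (KRT8) and 0.51 (KRT18) on the log2 scale at 2 weeks, and neither passed (adjusted p = 0.0529 and 0.0900). EPCAM differed by 0.48 at 48 hours and -0.41 at 2 weeks (adjusted p = 0.600 and 0.233). Summed leukocyte markers reached at most 3.78 FPKM, endothelial markers 0.0491 and fibroblast markers 11.5, the last nearly all COL1A1, with DCN at 0 throughout. At 2 weeks every CSC library was below every DMSO library for COL1A1 (-0.51, adjusted p = 0.0758) and above for CD14 (0.57, adjusted p = 0.176). For COL1A1 and the keratins, the share of all tested genes with every CSC library below every DMSO library was not counted. The part of these markers in the results on the 9 genes was not tested. In such bulk RNA, fewer expressing cells and less RNA per cell cannot be told apart.

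PHGDH, which catalyses the first and committed step of serine synthesis (hg19 chromosome 1, 120254419 to 120286849), had the largest change at 2 weeks among the 9 genes. Its FPKM was 12.5, 12.3 and 10.9 in DMSO replicates 1 to 3 and 39.8, 28.0 and 31.1 in CSC replicates 1 to 3. Every CSC library held more than 2 times the level of every DMSO library. The change was 1.42 ± 0.23 (log2, SE; limma adjusted p = 0.00467). At 48 hours its FPKM was 15.8 and 16.1 in DMSO replicates 2 and 3 and 16.1, 15.7 and 33.4 in CSC replicates 1 to 3. CSC replicates 1 and 2 thus lay at the DMSO level, and replicate 3 at the level of the 2-week CSC libraries. The change was 0.34 ± 0.26 (adjusted p = 0.821).

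PSAT1, the aminotransferase of the second step (chromosome 9, 80912059 to 80945009), was the most abundant of the 3 serine synthesis genes. At 2 weeks its FPKM was 52.2, 50.01 and 44.2 in DMSO and 109, 92.7 and 113 in CSC. The groups did not overlap, and the change was 1.09 ± 0.19 (adjusted p = 0.00679). At 48 hours DMSO had 64.5 and 55.9 and CSC had 58.2, 64.8 and 108 FPKM, with a change of 0.30 ± 0.22 (adjusted p = 0.803).

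PSPH, the phosphatase that releases serine (chromosome 7, 56078744 to 56119268), differed less. Its FPKM at 2 weeks was 14.2, 12.6 and 9.16 in DMSO and 19.2, 16.9 and 17.2 in CSC. All 3 CSC libraries were above all 3 DMSO libraries, but the change of 0.57 ± 0.17 did not pass over all genes (adjusted p = 0.0660). At 48 hours it was 12.6 and 13.3 in DMSO and 11.5, 13.0 and 17.5 in CSC, a change of 0.09 ± 0.19 (adjusted p = 0.960). PSPH has a near-identical pseudogene copy, and its FPKM is uncertain to the extent that the quantification divided reads between them.

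Summed over the 3 genes, serine synthesis transcripts stood at 72.7 ± 7.5 FPKM (SD, n = 3) in DMSO and 155.4 ± 15.9 (SD, n = 3) in CSC at 2 weeks. At 48 hours the sums were 89.2 ± 5.3 (SD, n = 2) and 112.8 ± 40.3 (SD, n = 3), and the wide SD of the latter reflects a sum of 159.1 in replicate 3 alone.

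Promoter sequences are shown because PHGDH, PSAT1 and MTHFD2 were the 3 genes with the largest changes at 2 weeks. RefSeq promoter windows on GRCh38.p14, from 250 bases before to 50 bases after the start, matched 6 of the 9 genes; PSPH, SHMT2 and ALDH1L2 have no entry. The upstream 250 bases are printed 5′ to 3′ on the plus strand, which is the strand of each gene, and capitals mark CCAAT on that strand, the motif bound by NF-Y. CCAAT was chosen after the sequences had been seen.
PSAT1, chr9:78296875-78297124: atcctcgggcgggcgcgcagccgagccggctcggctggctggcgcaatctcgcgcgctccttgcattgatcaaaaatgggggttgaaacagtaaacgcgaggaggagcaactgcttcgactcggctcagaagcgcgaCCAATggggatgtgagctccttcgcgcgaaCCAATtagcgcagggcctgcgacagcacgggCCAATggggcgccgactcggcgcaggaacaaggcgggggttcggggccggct
PHGDH, chr1:119711684-119711933: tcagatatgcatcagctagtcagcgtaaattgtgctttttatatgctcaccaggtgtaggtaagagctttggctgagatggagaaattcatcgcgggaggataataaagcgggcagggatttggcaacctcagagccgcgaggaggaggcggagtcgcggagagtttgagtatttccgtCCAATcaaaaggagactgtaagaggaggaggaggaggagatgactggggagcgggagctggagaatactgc
MTHFD2, chr2:74198365-74198614: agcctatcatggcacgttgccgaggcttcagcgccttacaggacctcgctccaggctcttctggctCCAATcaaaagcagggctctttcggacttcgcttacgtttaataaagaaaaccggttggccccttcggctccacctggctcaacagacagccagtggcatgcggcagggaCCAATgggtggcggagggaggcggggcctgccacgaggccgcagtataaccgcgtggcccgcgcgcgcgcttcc
PSAT1 carries 3 copies of CCAAT, MTHFD2 carries 2 and PHGDH carries 1. The longest run shared by PHGDH and MTHFD2, the only pair compared, was the 12 bases tCCAATcaaaag, found in 6 of all 35116 promoter windows (0.0171%). That share counts this 1 run. It does not tell how often 2 windows share some run of that length, which was not counted. With both strands searched, all 6 matched genes held CCAAT in at least 1 window, the 2 cytosolic genes included. It was present in 34.6% of the 35116 windows, with at least 3 copies in 3.26%. MTHFD1L has 4 windows, and the last held 0 copies. Here and for the motifs that follow, a gene is counted if any of its windows matches, whereas the background counts windows.

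Motifs were also searched for the regulators of these genes, on both strands of the same windows. The ATF4 composite element TTNCATCA was found in 3.62% of all windows and, among the 6 genes, in MTHFD1L. The E-box CACGTG, bound by MYC, was found in 7.26% of windows and in MTHFD1 and MTHFD1L. The antioxidant response core TGACNNNGC, bound by NRF2, was found in 13.3% of windows and in MTHFD2. The MTHFD1L and MTHFD1 matches are shown, in capitals, on the plus strand of GRCh38.p14, because they lie in 2 genes that did not pass the test at 2 weeks.
MTHFD1L ATF4 element (read on the minus strand), chr6:150866327-150866394: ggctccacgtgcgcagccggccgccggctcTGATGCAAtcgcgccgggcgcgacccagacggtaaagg
MTHFD1 E-box, chr14:64388308-64388373: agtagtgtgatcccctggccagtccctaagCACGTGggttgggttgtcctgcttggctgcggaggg
In the MTHFD1L window the E-box, in lower case, lies upstream of the ATF4 element. A match is a description of the letters in these windows and shows no binding.

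MTHFD2, the mitochondrial methylenetetrahydrofolate dehydrogenase that is abundant in embryonic and tumour cells and low in most adult tissue (chromosome 2, 74425690 to 74442424), had the largest change of the mitochondrial arm. At 2 weeks its FPKM was 45.8, 40.4 and 40.9 in DMSO and 109, 78.6 and 99.8 in CSC. The CSC libraries were all above the DMSO libraries, by 1.16 ± 0.22 (adjusted p = 0.0105). Without DMSO at 2 weeks replicate 3 the adjusted p was 0.0506, and without CSC replicate 3 it was 0.0567. At 48 hours the values were 57.3 and 50.4 in DMSO and 58.1, 64.4 and 118 in CSC. The lowest CSC library lay just above the higher DMSO library, and the change was 0.50 ± 0.25 (adjusted p = 0.634).

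SHMT2, which feeds serine carbon into the mitochondrial arm (chromosome 12, 57623356 to 57628718), was higher by a smaller amount. Its FPKM at 2 weeks was 29.4, 28.6 and 25.2 in DMSO and 44.5, 34.7 and 41.2 in CSC, without overlap. The change was 0.52 ± 0.12 (adjusted p = 0.0235). The call was lost on leaving out DMSO replicate 1 (0.0570), DMSO replicate 2 (0.0699), DMSO replicate 3 (0.113), CSC replicate 1 (0.0906) or CSC replicate 3 (0.1003) at 2 weeks. At 48 hours SHMT2 had 30.9 and 26.7 FPKM in DMSO and 30.3, 33.3 and 32.5 in CSC, a change of 0.15 ± 0.13 (adjusted p = 0.846).

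MTHFD1L, the mitochondrial formate-producing synthetase (chromosome 6, 151186815 to 151423023), had 18.9, 15.6 and 14.5 FPKM in DMSO and 26.0, 19.0 and 21.4 in CSC at 2 weeks. The lowest CSC library was only slightly above the highest DMSO library, and the change of 0.42 ± 0.17 did not pass (adjusted p = 0.144). At 48 hours it had 18.2 and 13.1 in DMSO and 16.4, 18.8 and 22.7 in CSC, a change of 0.30 ± 0.19 (adjusted p = 0.746).

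ALDH1L2, which oxidises the mitochondrial formyl group to carbon dioxide with production of NADPH (chromosome 12, 105413562 to 105478341), was the least abundant of the 9 genes. At 2 weeks it had 2.19, 1.94 and 1.62 FPKM in DMSO and 3.07, 3.17 and 3.47 in CSC. The groups did not overlap, and the change of 0.63 ± 0.26 did not pass (adjusted p = 0.163). At 48 hours it had 1.804 and 1.786 in DMSO and 1.93, 2.08 and 5.36 in CSC, a change of 0.53 ± 0.29 (adjusted p = 0.700). Replicate 3 of CSC at 48 hours held the highest ALDH1L2 level of all 11 libraries.

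**Figure D2:**
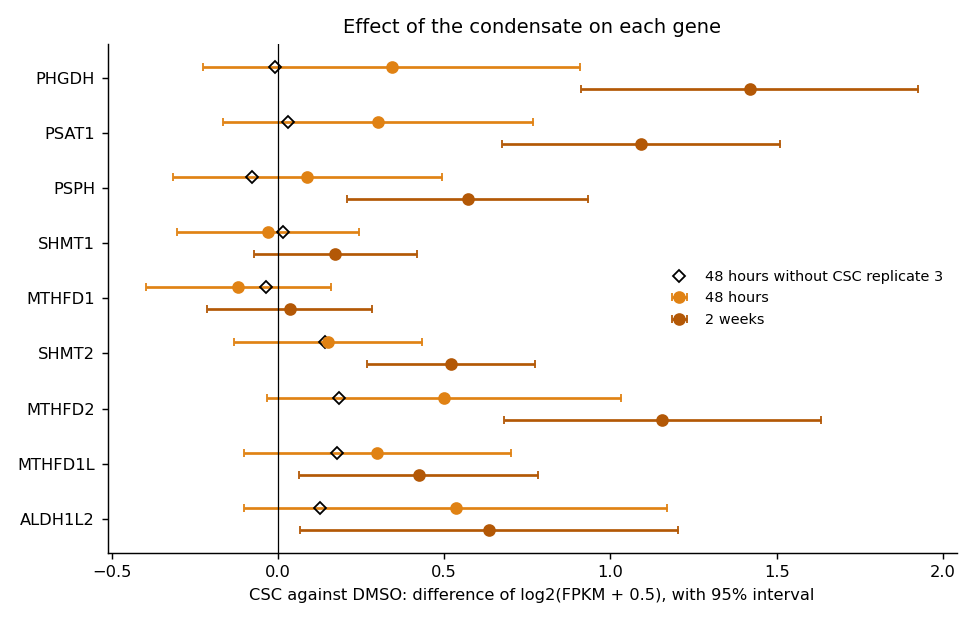
Difference between CSC and DMSO in log2(FPKM + 0.5) for each gene at 48 hours and at 2 weeks, with 95% intervals from limma; open diamonds give the 48-hour difference without CSC replicate 3. The intervals at 2 weeks lie above 0 for 7 genes and span 0 for SHMT1 and MTHFD1, and those at 48 hours span 0 for all 9.

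Over the mitochondrial arm, summed FPKM was 88.4 ± 7.1 (SD, n = 3) in DMSO and 161.2 ± 23.7 (SD, n = 3) in CSC at 2 weeks. For the cytosolic arm the sums were 64.6 ± 1.9 (SD, n = 3) and 68.4 ± 6.2 (SD, n = 3), and their ranges overlapped.

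SHMT1, the cytosolic serine hydroxymethyltransferase (chromosome 17, 18231187 to 18266856), had 18.8, 19.8 and 18.3 FPKM in DMSO and 24.5, 19.9 and 20.1 in CSC at 2 weeks. CSC replicate 1 was well above the rest, and replicates 2 and 3 were within 2 FPKM of the DMSO libraries. The change was 0.17, with a 95% interval of -0.07 to 0.42 (adjusted p = 0.361). At 48 hours SHMT1 had 15.7 and 15.3 in DMSO and 17.3, 14.1 and 14.2 in CSC, a difference of -0.03 ± 0.13 (adjusted p = 0.975).

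MTHFD1, the trifunctional cytosolic enzyme (chromosome 14, 64854759 to 64926725), had 47.3, 45.4 and 44.1 FPKM in DMSO and 50.1, 42.3 and 48.2 in CSC at 2 weeks. The groups overlapped, and the difference was 0.04, with a 95% interval of -0.21 to 0.28 (adjusted p = 0.874). Its sign turned negative under each of 3 other library scalings. At 48 hours MTHFD1 had 46.6 and 39.0 in DMSO and 40.8, 42.3 and 35.0 in CSC, a difference of -0.12 ± 0.13 (adjusted p = 0.893).

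The 4 genes called higher at 2 weeks are to be read against 376 of 12506 tested genes called higher, which is 3.01%. Because the 9 genes were chosen with earlier results of these data known, the shares given here are not an independent contrast. For 8 of the 9 genes every CSC library was above every DMSO library at 2 weeks, against 20.3% of all tested genes. The median change of the 9 genes was 0.57 (log2), and that of all tested genes was 0.10 (0.095). An unadjusted p under 0.05 was reached by 7 of the 9 genes and by 3075 of the 12506. Scaling the libraries to a common FPKM sum moved the all-gene median to -0.03 and the calls from 376 higher and 300 lower to 264 higher and 487 lower, and the same 4 members were called. Over 22 alternatives the PHGDH change ranged from 1.28 to 1.53 and that of PSAT1 from 0.95 to 1.18.

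At 48 hours 0 of the 9 genes were called by limma, and 0 had an unadjusted p under 0.05. The background was 0.288% of tested genes called in either direction (36 of 12506), with 1062 at an unadjusted p under 0.05. The CSC libraries were all above the DMSO libraries for 2 members, MTHFD2 and ALDH1L2, against 11% of all tested genes. The median change of the 9 genes was 0.30.

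Mitochondrial and cytosolic partners catalyse similar steps, so their ratio was computed within each library as log2 of (FPKM + 0.5) over (FPKM + 0.5), as a description without a test. MTHFD2 over MTHFD1 was -0.05, -0.17 and -0.11 in DMSO at 2 weeks and 1.11, 0.89 and 1.04 in CSC at 2 weeks. MTHFD2 transcripts were thus slightly below those of MTHFD1 in every DMSO library and 1.86 to 2.17 times as abundant in every CSC library. At 48 hours the log2 ratio was 0.29 and 0.37 in DMSO and 0.51, 0.60 and 1.74 in CSC. SHMT2 over SHMT1 was 0.54 ± 0.09 (SD, n = 3) in DMSO and 0.89 ± 0.12 (SD, n = 3) in CSC at 2 weeks, and the libraries did not overlap. At 48 hours it was 0.87 ± 0.12 (SD, n = 2) and 1.05 ± 0.23 (SD, n = 3), with overlap. Apart from the added 0.5, multiplying a library by a factor leaves this ratio unchanged, whereas quantile normalization can change it. By itself the ratio does not tell which of the 2 transcripts differed. Taken singly, MTHFD2 and MTHFD1 differed by 1.16 and 0.04 (log2) at 2 weeks, and SHMT2 and SHMT1 by 0.52 and 0.17.

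**Figure D3:**
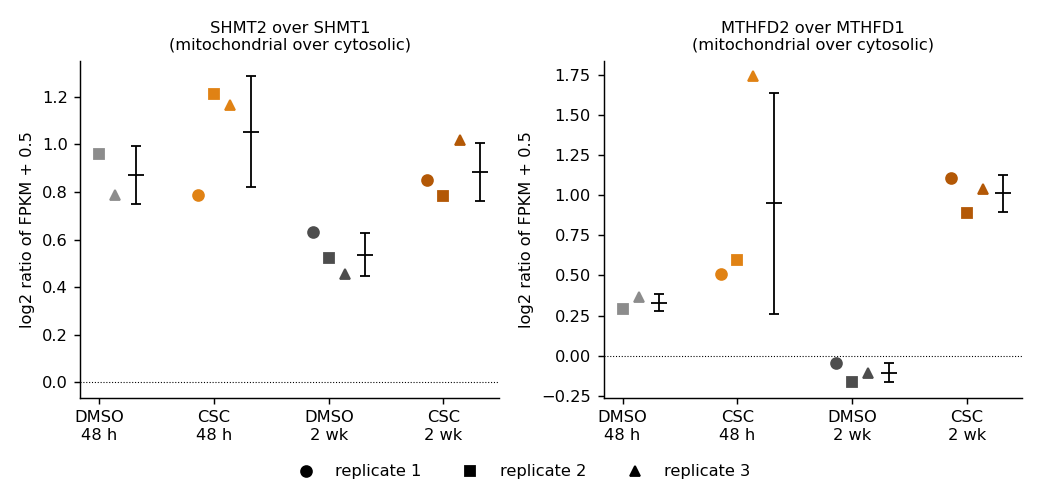
Log2 ratio of the mitochondrial to the cytosolic partner in each library, with the mean and SD of each group. MTHFD2 over MTHFD1 is below 0 in the 3 DMSO libraries at 2 weeks and between 0.89 and 1.11 in the 3 CSC libraries, and CSC at 48 hours replicate 3 is highest at 1.74.

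CSC at 48 hours replicate 3 lay outside the range of the other 4 libraries of that time in 7 of the 9 genes. The share of all tested genes for which it did so was not counted, so this and the counts below have no background. PHGDH, PSAT1, PSPH, MTHFD2, MTHFD1L and ALDH1L2 were above all 4, at 2.10, 1.76, 1.43, 1.93, 1.29 and 2.67 times the mean of CSC replicates 1 and 2. SHMT2 and SHMT1 were within the range of the other libraries, and MTHFD1 was below all 4, at 0.842 times that mean. In the same library all 7 ATF4-linked stress genes were above all 4 others: CHAC1, which degrades glutathione, was at 7.67 times and DDIT3, a stress-induced transcription factor, at 9.9 times the mean of replicates 1 and 2. DDIT3 was singled out after its values had been seen. All 6 proliferation genes were below all 4 others, with PCNA, the replication clamp, at 0.627 times and TOP2A, a topoisomerase of dividing cells, at 0.815 times that mean. The median deviation of the 7 stress genes from their 11-library means was 1.74 (log2) in replicate 3, against -0.44 and -0.22 in replicates 1 and 2. The part of this library's stress and proliferation values in the 48-hour result was not tested.

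Without that library, no member was called at 48 hours either (background 0.787%, 98 of 12446 tested genes). The PHGDH difference became -0.01, the PSPH difference -0.08 and the SHMT1 difference 0.02. At 2 weeks PSPH and ALDH1L2 passed in addition in the fit without replicate 3, which also called more of all genes higher (680 of 12446, or 5.46%, against 3.01% with it).

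**Figure D4:**
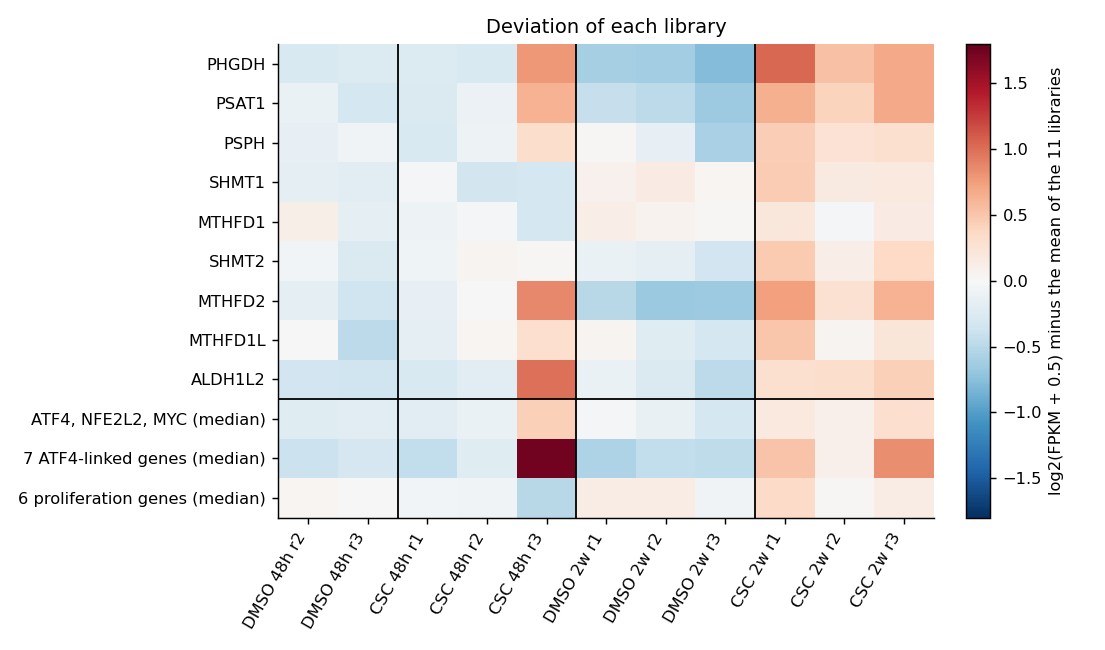
Deviation of each library from the mean of the 11 libraries in log2(FPKM + 0.5), for the 9 genes and for the medians of the regulators, 7 ATF4-linked genes and 6 proliferation genes. Red marks the 3 CSC libraries at 2 weeks and CSC at 48 hours replicate 3 in PHGDH, PSAT1, MTHFD2 and ALDH1L2; in that replicate the stress-gene median is 1.74 and the proliferation median -0.50.

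The change of the CSC effect from 48 hours to 2 weeks was tested as an interaction. It was positive for all 9 genes, largest for PHGDH (1.08 ± 0.35), but 0 of 9 were called (PHGDH adjusted p = 0.630). The background was 0.04% of tested genes (5 of 12506); 2 members and 876 tested genes had an unadjusted p under 0.05. PSAT1 stood at 0.79, MTHFD2 at 0.66 and SHMT2 at 0.37, with adjusted p of 0.647, 0.702 and 0.702. Without CSC at 48 hours replicate 3 the PHGDH interaction was 1.43 and was called (adjusted p = 0.0243), against a background of 0.0803% (10 of 12446). For the other 8 genes, a larger effect at 2 weeks than at 48 hours was not called with or without that library.

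Levels also differed between times in each treatment. In DMSO, PHGDH, PSAT1 and MTHFD2 were lower in every 2-week library than in either 48-hour library, by 0.41, 0.30 and 0.34 (log2), and none of them passed (adjusted p = 0.559, 0.618 and 0.618). SHMT1 was higher in every 2-week DMSO library, by 0.28 ± 0.13 (limma adjusted p = 0.379). The share of all tested genes without overlap between times in DMSO was not counted, so nothing is read from these orders. No member was called in DMSO between times by limma, against 0.768% of all tested genes in either direction, and 1 member and 1601 tested genes had an unadjusted p under 0.05. In CSC, SHMT1 rose from 14.1 to 17.3 FPKM at 48 hours to 19.9 to 24.5 at 2 weeks, by 0.49 ± 0.11 (adjusted p = 0.0245). That single member is to be read against 12.3% of tested genes called higher (1536, with 172 lower), which became 85 higher and 455 lower under a common FPKM sum. The SHMT1 call was kept in 16 of 22 alternatives. It was lost under 3 other scalings and with only the libraries compared. It was also lost without CSC at 48 hours replicate 2 or CSC at 2 weeks replicate 1. PHGDH (0.67, adjusted p = 0.0710), PSAT1 (0.49, adjusted p = 0.0977) and SHMT2 (0.32, adjusted p = 0.0822) did not pass. Without CSC at 48 hours replicate 3, 6 members were called higher between times in CSC (PHGDH, PSAT1, PSPH, SHMT1, MTHFD2 and ALDH1L2), against 11.7% of tested genes. The comparisons of time share their libraries with the comparisons of CSC, so neither supports the other.

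The rest of the pathway was followed through 35 further genes in 7 lists, of which 30 passed the filter. At 2 weeks 1 of the 30 was called higher, a share near the 3.01% of all tested genes called higher, and 0 were called lower. Of the 30, 21 had a positive and 9 a negative difference. Their median was 0.16, against 0.57 for the 9 genes and 0.10 (0.095) for all tested genes. The called gene was CBS, which condenses serine with homocysteine as the first step of transsulfuration towards cysteine. Its FPKM was 5.93, 5.80 and 5.996 in DMSO and 17.3, 12.5 and 15.6 in CSC at 2 weeks, a rise of 1.28 ± 0.27 (adjusted p = 0.0161). The call was lost without any one 2-week library other than CSC replicate 2, and without a filter on low values. At 48 hours CBS had 5.72 and 7.495 in DMSO and 7.20, 9.30 and 19.4 in CSC, so that replicate 3 was again the highest. CTH, the next enzyme of transsulfuration, stood at 0.428 to 1.42 FPKM in the 11 libraries and differed by -0.02 at 2 weeks (adjusted p = 0.963).

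Other branches held no called gene for CSC. Of the glycine cleavage genes, GCSH and DLD differed by 0.20 and 0.19 at 2 weeks (adjusted p = 0.603 and 0.227). GLDC, the third gene tested there and named after its values had been seen, was lower in every CSC library than in every DMSO library, by 0.25 on the log2 scale, and did not pass (adjusted p = 0.251). The share of all tested genes with every CSC library below every DMSO library was not counted, so nothing is read from that order. Among genes of folate transport and retention, GGH and FPGS, which remove and add the glutamate tail that keeps folate in cells, differed by -0.14 and 0.17 (adjusted p = 0.555 and 0.598). Of the 8 genes listed for thymidylate, purine and related steps, 7 had a positive difference at 2 weeks with a median of 0.23, and none was called. AHCY and MAT2A of the methionine cycle differed by 0.37 and 0.09 (adjusted p = 0.113 and 0.667). MTHFD2L, a paralog of MTHFD2, lay at 0.617 to 1.60 FPKM and ALDH1L1, the cytosolic paralog of ALDH1L2, at no more than 0.31 FPKM in any library. Between times in CSC, SDSL, a serine dehydratase-like enzyme, was higher at 2 weeks by 0.98 ± 0.22 (adjusted p = 0.0218), in a comparison that called 12.3% of all tested genes higher. In DMSO it was higher at 2 weeks by 1.02 and did not pass (adjusted p = 0.0900). The SDSL call in CSC was kept in 14 of 22 alternatives; it was lost under median-of-ratios scaling, a common FPKM sum, no filter, only the libraries compared, and without CSC at 48 hours replicate 1 or 2 or CSC at 2 weeks replicate 1 or 3, with adjusted p up to 0.0825.

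**Figure D5:**
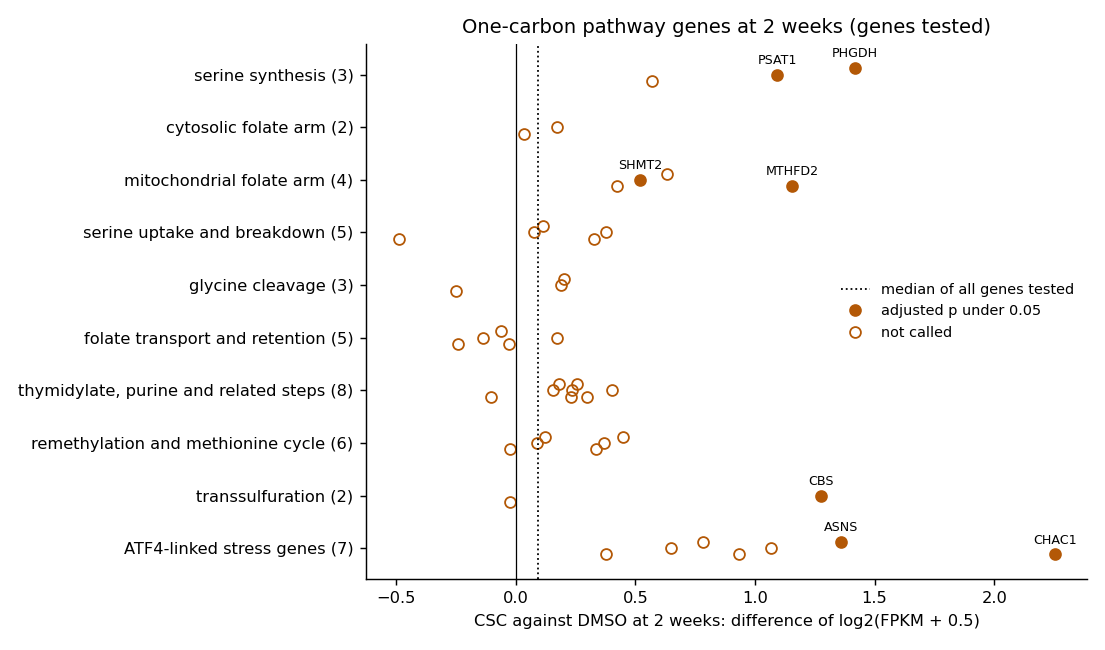
Difference between CSC and DMSO at 2 weeks for the tested genes of the 9 genes' arms, 6 pathway lists and the ATF4-linked list, with the number tested in parentheses and the dotted line at the median of all tested genes. Filled points among these lists were called: PHGDH, PSAT1, SHMT2, MTHFD2, CBS, ASNS and CHAC1.

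Of the 3 regulators examined, the ATF4 transcript passed at 2 weeks, with 81.1, 79.1 and 67.7 FPKM in DMSO and 156, 104 and 127 in CSC. The groups did not overlap and ATF4 rose by 0.75 ± 0.19 (adjusted p = 0.0410); the call was lost in 10 of 22 alternatives, with adjusted p up to 0.160. NFE2L2, which encodes NRF2, and MYC, both named after their values had been seen, differed by 0.27 and 0.25 (adjusted p = 0.358 and 0.313). ATF4 protein is mostly controlled by translation, which these data do not measure. Among 7 other ATF4-linked genes, all had positive differences at 2 weeks with a median of 0.94. Of these, 2 were called higher, against 3.01% of all tested genes. ASNS, asparagine synthetase, had 21.4, 18.7 and 17.8 FPKM in DMSO and 53.7, 43.0 and 54.6 in CSC and rose by 1.36 ± 0.29 (adjusted p = 0.0172). CHAC1 had 0.686, 0.676 and 0.657 FPKM in DMSO and 4.54, 3.93 and 7.32 in CSC and rose by 2.25 ± 0.54 (adjusted p = 0.0316). Both calls were lost without any one 2-week library other than CSC replicate 2, and without a filter on low values. Proliferation genes had a median difference of 0.05 at 2 weeks, and none was called.

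The genes whose pattern was most like 1 gene of each arm were sought among 8079 other tested genes whose mean FPKM reached 5. Symbols starting with prefixes of small RNA classes, such as SNOR, RNU and MIR, had been left out. Genes were ranked by Pearson's r of log2(FPKM + 0.5) over the 11 libraries. These values are a description: the libraries fall into groups, so r mostly records which libraries were high. For PSAT1 the 3 nearest were GARS, a glycyl-tRNA synthetase (0.99), ASNS (0.98) and PHGDH (0.98). SHMT2 was nearest to PM20D2 (0.98), FGD1 (0.97) and EIF4EBP1, a repressor of translation initiation (0.97). MTHFD1 was nearest to HNRNPU (0.97), BTBD1 (0.97) and PTBP1 (0.97), of which HNRNPU and PTBP1 bind RNA. No member of the serine synthesis or mitochondrial genes was among the 3 nearest to MTHFD1.

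In order of mean FPKM in DMSO at 2 weeks, PSAT1 (48.8 ± 4.1), MTHFD1 (45.6 ± 1.6) and MTHFD2 (42.4 ± 3.0) came first, with overlapping ranges. SHMT2 (27.7 ± 2.2) followed, then SHMT1 (18.9 ± 0.8) and MTHFD1L (16.3 ± 2.2), whose ranges overlapped, then PSPH (11.95 ± 2.55) and PHGDH (11.9 ± 0.9), which also overlapped, and ALDH1L2 (1.92 ± 0.29) was last. In CSC at 2 weeks PSAT1 (104.7 ± 10.6) and MTHFD2 (95.7 ± 15.4) stood apart from MTHFD1 (46.9 ± 4.1), SHMT2 (40.2 ± 5.0) and PHGDH (33.0 ± 6.1), each as mean ± SD over 3 libraries. PHGDH thus moved from below SHMT1 and MTHFD1L in DMSO to above both in CSC.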

How the data were processed

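RNA was isolated from A549 cells, libraries were made with a ribosomal RNA depletion kit and sequenced on an Illumina instrument, and reads were aligned to hg19 with TopHat2 2.0.9, per the labels' protocols; CASAVA 1.7.1a5 is named in the submitters' processing notes. The authors deposited FPKM per gene with lower and upper bounds, 25275 lines per library; quantifier and annotation: not given in the sources used here. FPKM was summed over loci per symbol (548 symbols at more than 1 locus, none of them among the 9 genes), and 1 gene with a failed estimate was left out. No 2 libraries were identical. The half-width of the deposited bounds was 3.92 to 20.8% of the FPKM for the 9 genes. The 12506 genes that reached an FPKM of 1 in 2 or more libraries were tested with limma 3.58.1 in R 4.3.3 on log2(FPKM + 0.5), with 1 fit of the 4 groups, moderated variances with a mean-variance trend and Benjamini-Hochberg adjustment over all tested genes; genes with adjusted p under 0.05 were called. The script was tested on simulated data. Alternatives were other pseudocounts, filters, scalings, sets of libraries, library weights, a replicate block and leaving out each library. The named genes are the 9 members, the members of each pathway list that were called, and otherwise the 2 of highest mean FPKM in a list; 1 gene that this rule names is not reported here. Members and lists were chosen with earlier results of these data known.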

Additional observations from a re-analysis of the deposited data

How the results depend on the processing

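Over 40 values under up to 22 alternatives, 790 of 873 kept their direction and side of the threshold, 56 lost the call, 14 gained it and 13 turned sign. Only values called in the main fit could lose a call, and most of the 40 were not called there. The 790 therefore do not measure how stable the calls were. PHGDH and PSAT1 at 2 weeks were called in 22 of 22 alternatives (adjusted p up to 0.0292 and 0.0422), MTHFD2 in 20 and SHMT2 in 17. Leaving out each library in turn, 2 to 6 members were called at 2 weeks (2, PHGDH and PSAT1, without DMSO replicate 3 or without CSC replicate 3; 6 without CSC at 48 hours replicate 3), 0 to 1 for the interaction and 0 to 6 for time in CSC (0 without CSC at 48 hours replicate 2 or CSC at 2 weeks replicate 1). With library weights, 7 members were called at 2 weeks and 7 for time in CSC, where 3236 of all genes were called higher and 286 lower, against 1536 and 172. For time in CSC 0 members were called under median-of-ratios scaling, a common FPKM sum, quantile normalization, or with only the libraries compared. These scalings moved the all-gene median of that comparison from 0.187 to 0.007, -0.092 and 0.011, and that at 2 weeks from 0.095 to 0.001, -0.034 and 0.022. At 2 weeks they called 290 genes higher and 471 lower, 264 and 487, and 312 and 434, against 376 and 300; with library weights the counts were 2477 and 1274. The MTHFD1 difference at 2 weeks was -0.067, -0.107 and -0.053 under the 3 scalings in that order, and -0.014 to 0.106 on leaving out a library. At 48 hours SHMT1 was 0.012 under a common sum and 0.056 with library weights, and PSPH was -0.061 with library weights. On leaving out a library at 48 hours, PHGDH ranged from -0.008 to 0.525, PSPH from -0.078 to 0.216, SHMT1 from -0.125 to 0.021, MTHFD1 from -0.247 to 0.010 and ASNS from -0.082 to 0.647. The cause of these shifts was not tested. Deviations from group means correlated at -0.20 to 0.31 between same-numbered libraries and at -0.22 to 0.28 between those of other numbers. DMSO at 48 hours has 2 libraries, whose deviations mirror each other (0.207 and -0.207 with CSC at 48 hours replicate 2). These ranges therefore cannot tell whether replicate numbers pair the libraries. With the replicate block, 4 members were called at 2 weeks, 1 for time in CSC and 0 in the other comparisons. Depth was known only in relative terms, and CSC at 2 weeks replicate 2 was the deepest library.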
